A study of Mus musculus with 32 samples.

Results

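The comparison described here spans the exit of mouse embryonic stem cells (ESCs) from the naive ground state: RGd2 cells after 72 h in N2B27 (N72h) against RGd2 cells kept in 2i for 5 passages (2ip5). Its members are the 6 libraries that the labels place in those cultures, 3 in each, of 32 RNA-seq libraries in the series, and all 18892 genes that passed a filter on low counts were tested. RGd2 is an otherwise unmodified ESC line with a reporter, a destabilized green fluorescent protein read from the Rex1 locus, and all groups used here carry it. 2i is N2B27 medium with PD0325901, which blocks the kinase MEK upstream of ERK, and CHIR99021 (CH), which blocks GSK3 and so mimics Wnt signalling. N2B27 is the serum-free base medium on its own, in which the cells leave self-renewal. In each group libraries 1 and 2, or 7 and 8, came from the parental RGd2 line, and library 3 or 9 came from a clonal line grown from 1 cell of it. As the only earlier time, 3 RGd2 libraries taken after 16 h in N2B27 (N16h) were compared with 3 RGd2 libraries in 2i (2i). The cells of that earlier pair had been expanded in CH and the cytokine LIF and moved to 2i shortly before, so that time and earlier culture cannot be told apart where 16 h is set beside 72 h. The methods describe that expansion and transfer for the cell lines in general, before assays, and the labels do not say whether it preceded N72h. The labels and files hold 3 N16h libraries, while the methods state that a replicate of that group was lost, and the labels were followed.

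ESCs in 2i hold a transcription factor network, the naive network, that is also found in the epiblast before implantation. Release from the inhibitors lets FGF4, made by the cells themselves, signal through ERK, and ends the stabilization of β-catenin that keeps TCF3 from repressing naive genes. Cells then pass through formative pluripotency, the state of the epiblast just after implantation, before they acquire germ layer or germ line fates. N2B27 contains no inducer of mesoderm or endoderm, and adherent culture in it is a classical route to neural precursors.

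Between 9255795 and 38923444 fragments per library fell on genes, 9255795, 18292442 and 22213048 in 2ip5 and 21523235, 16037731 and 38923444 in N72h. Levels are given as FPKM, the fragments of a gene divided by its length and by the total of the library. Fold changes were calculated from counts scaled by the spike-in transcripts that the authors added, and are given on the log2 scale with their standard error (SE). A gene was called when the p of edgeR's quasi-likelihood test, adjusted by the Benjamini-Hochberg method, was under 0.05 and its mean FPKM was at least 1 in either group. Whether replicates of the same line came from separate cultures is not stated for these groups, so that p-values measure the spread between these libraries. Spike-ins took 1.41% ± 0.0835 (SD, n = 3) of the counts in N72h and 1.47% ± 0.0636 (SD, n = 3) in 2ip5, a difference of −0.0573 percentage points (exact permutation test, two-sided, p = 0.4, where 0.1 is the smallest p that 3 against 3 allow). Counts of replicates differed by 3.25 to 10.5 chi-square per gene, where counting alone gives about 1, so no library was a repeat of another. The clonal line was nearly without Y-linked transcripts. *Uty* had FPKM values of 3.98, 4.003 and 0.0276 in libraries 1 to 3 and 4.69, 4.58 and 0.0105 in libraries 7 to 9, and *Ddx3y* was low in the same 2 libraries.

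At N72h 4189 genes were higher than in 2ip5 (22.2% of the 18892 tested) and 2802 were lower (14.8%). Changes of over 2 on the log2 scale were seen in 832 genes that rose and 543 that fell, and changes of over 5 in 117 and 74. Of the 6991 genes called, 6872 (98.3%) had 3 libraries on one side of the other 3 with no overlap, which also held for 61.8% of all genes tested. The median change of all genes was 0.115. With TMM scaling, which centres that median on 0, 3873 genes were higher and 4065 lower, so the share of calls that were higher went from 59.9% to 48.8%. Against the 2i libraries of the earlier pair as the reference, 2651 genes were higher and 5514 lower, 32.5% of calls higher. Genes described here as higher or lower than in 2ip5 that were not called against 2i in that edgeR fit included *Fgfr1* (adjusted p = 0.597), *Fgfr2* (0.197), *Id1* (0.323), *Grb10* (0.0586), *Phlda2* (0.245), *Cldn5* (0.133), *Mir293* (0.0536), *Rmrp* (0.502), *Hprt* (0.247), *Crabp1* (0.151) and *Hspg2* (0.724). *Actb*, *Hey1*, *Larp7*, *Rarg*, *Tcf7* and *Wnt3* were not called against 2i either, and their sign changed. Other genes were not called against 2ip5 but passed the threshold against 2i. Lower were *Gbx2* (−1.20), *Sall4* (−0.69), *Etv5* (−0.78), *Dnmt1* (−0.68), *Pou5f1* (−0.275), *Hes1* (−0.42), *Lef1* (−0.40), *Cdh2* (−0.775), *Rbpj* (−0.54) and *mt-Co2* (−1.60). Higher were *Dppa4* (0.33) and *Mdm2* (0.29). The fit against 2i was run with spike-in scaling only, and spike-ins took 0.991%, 1.19% and 1.39% of the counts in 2i libraries 31, 32 and 33. By FPKM *Pou5f1* had 327, 316 and 410 in 2i against 350, 335 and 344 in N72h. *Actb* was higher by FPKM in every N72h library than in any 2i library, and *Gbx2* and *Sall4* were lower. The numbers of genes that rose and fell thus depend on the scaling and the reference culture, and the fates of named genes and gene groups are given with their own values.

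Of 30 gene lists, naive state genes and naive transcription factors had the largest share of members that fell, and formative genes, genes of cholesterol synthesis and ERK response genes the largest share that rose. The lists were chosen with earlier results of these data known, and are described by counts beside the 22.2% and 14.8% of all genes. The 10 counts of 0 called members in 1 direction of a list were checked with the minimum of 1 FPKM kept. Both edgeR's quasi-likelihood test at an unadjusted p under 0.05 and DESeq2 gave 0 members too, except for 1 housekeeping gene that was lower by both. Genes below the minimum could not enter this check. Of these, 4 neural progenitor markers and 1 endoderm marker were lower past the adjusted edgeR test. In the same way 3 midbrain and hindbrain genes were higher, and forebrain genes had 1 higher and 1 lower.

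**Figure D1:**
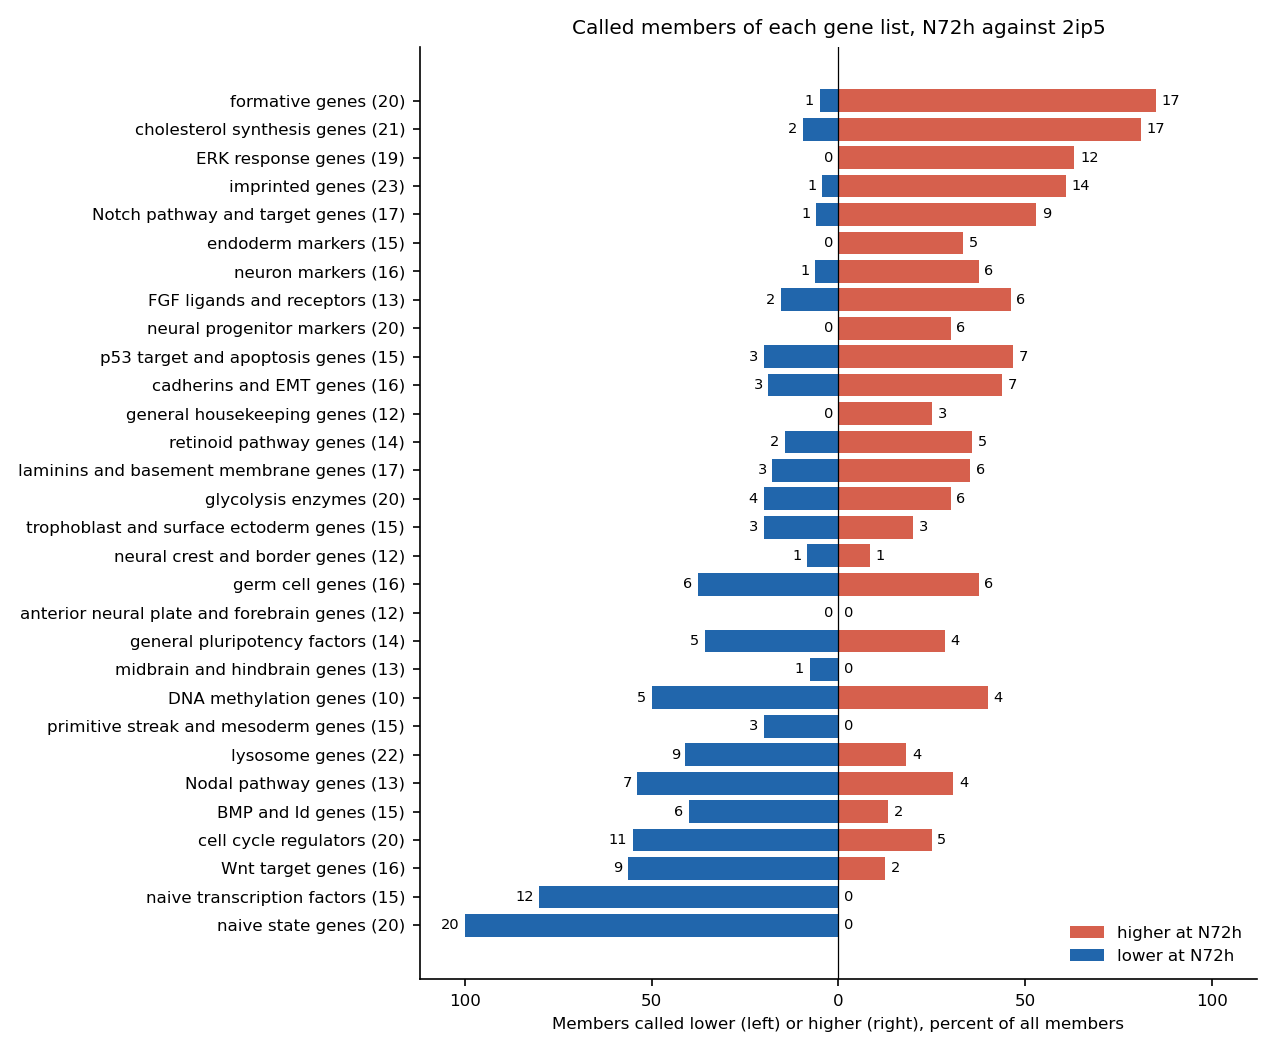
Called members of each gene list as a percentage of all members, those lower at N72h to the left (blue) and those higher to the right (red), with the number of called genes beside each bar and list sizes in brackets. All 20 naive state genes were lower and 17 of 20 formative genes were higher.

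The naive transcription factors fell together. Of 15 members 12 were lower, none was higher, and the median change of the list was −3.75. *Nanog* (ENSMUSG00000012396.12, GRCm38 chromosome 6, 122707489 to 122714633), a homeodomain factor that allows self-renewal without LIF when in excess, had FPKM values of 332, 336 and 316 in 2ip5 and 29.6, 31.8 and 34.2 in N72h. Every N72h library was below every 2ip5 library, a change of −3.31 (SE 0.11, adjusted p = 3.06e-25, edgeR, Benjamini-Hochberg). *Esrrb*, the orphan nuclear receptor through which GSK3 inhibition acts on the network, had 108, 108 and 99.8 FPKM in 2ip5 and 6.38, 5.135 and 5.98 in N72h, a change of −4.12 (SE 0.13). *Nr5a2*, another nuclear receptor, fell furthest among these factors, from 20.3, 22.0 and 20.3 FPKM to 0.339, 0.243 and 0.305, a change of −6.08 (SE 0.15, adjusted p = 1.28e-29 from the same edgeR test). *Prdm14*, which restrains FGF signalling and DNA methylation, was reduced from 15.04, 13.1 and 14.9 FPKM to 0.326, 0.243 and 0.401 (−5.34, SE 0.18). *Tfcp2l1* changed by −4.87 (SE 0.16) and *Tbx3* by −4.56 (SE 0.19). *Nanog* thus kept a mean of 31.9 FPKM at 72 h, whereas the FPKM of *Nr5a2*, *Prdm14*, *Tbx3* and *Klf4* was below 1 in every N72h library.

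The other 3 members were not called against 2ip5. *Gbx2* had 1.99, 1.98 and 2.34 FPKM in 2ip5 and 1.64, 1.69 and 2.16 in N72h (−0.15, SE 0.21, adjusted p = 0.595). *Stat3*, the mediator of LIF signalling, changed by 0.17 (SE 0.12) and *Sall4* by −0.22 (SE 0.10), neither of them called. *Sall4* was called lower with TMM (−0.34), with DESeq2 (adjusted p = 0.0432) and in the edgeR fit of only the 6 libraries compared (adjusted p = 0.0339). Against the 2i libraries *Gbx2* (−1.20, SE 0.20, adjusted p = 2.25e-06, edgeR) and *Sall4* (−0.69, SE 0.10, adjusted p = 2.06e-07, same test) were lower. All 20 genes of the wider naive state list were lower, with a median of −2.87. Among them were *Calcoco2* (−6.00, SE 0.21), the junction protein gene *Jam2* (−5.73, SE 0.22), the AKT cofactor *Tcl1* (−5.53, SE 0.20), and *Tdh*, the threonine dehydrogenase on which mouse ESCs depend, which went from 266, 259 and 252 FPKM to 17.2, 17.2 and 18.3. *Dppa5a*, one of the most abundant ESC transcripts, went from 1717, 1876 and 1757 FPKM to 343, 300 and 347, and so remained well expressed after a fall of 2.39 on the log2 scale. Receptor subunits for LIF fell less, *Il6st* by 2.06 and *Lifr* by 1.47 on the log2 scale.

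*Zfp42*, which encodes REX1, is the gene behind the reporter (ENSMUSG00000051176.6, chromosome 8, 43295063 to 43306980). It had 165, 168 and 150 FPKM in 2ip5 and 12.03, 11.4 and 11.5 in N72h, a change of −3.75 (SE 0.13, adjusted p = 3.88e-25, edgeR, Benjamini-Hochberg). All 3 N72h libraries lay well below all 2ip5 libraries. Its promoter is shown because the octamer, the site bound by POU factors such as OCT4, occurs in it. The sequence is that of RefSeq on GRCm38.p6, minus strand, chr8:43306960-43307259, from 250 bases before to 50 after the start, with the octamer (ATTTGCAT or ATGCAAAT on the other strand) in capitals.
Zfp42 promoter: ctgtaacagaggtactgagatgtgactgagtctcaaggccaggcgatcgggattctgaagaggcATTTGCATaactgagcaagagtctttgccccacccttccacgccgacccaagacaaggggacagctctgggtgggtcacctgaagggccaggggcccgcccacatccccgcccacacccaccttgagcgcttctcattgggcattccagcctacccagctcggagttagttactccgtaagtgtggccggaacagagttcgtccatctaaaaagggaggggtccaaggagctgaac
Octamers were found in 1.44% of the 12372 promoters of tested genes that had an entry, in 1.57% of those of genes that rose and in 1.29% of those of genes that fell. CpG counts had a median of 20 per promoter over all tested genes, 22 in those that rose and 20 in those that fell, and of 14 in the 11 promoters of naive factors with an entry.

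The general pluripotency factors did not move as a block. Of 14 members 4 rose and 5 fell, with a median of −0.09. *Pou5f1*, which encodes OCT4 and is needed in naive and formative cells alike, had 381, 366 and 363 FPKM in 2ip5 and 350, 335 and 344 in N72h, a change of −0.06 (SE 0.09, adjusted p = 0.609, edgeR, Benjamini-Hochberg). With TMM the change was −0.18 and past the threshold (adjusted p = 0.0189 in that edgeR fit). Its partner *Sox2* fell from 143, 133 and 143 FPKM to 35.1, 31.8 and 35.0 (−1.99, SE 0.12, adjusted p = 1.64e-17 from the same edgeR test), without overlap of the groups. *Dppa2* changed by −1.83 (SE 0.10), while *Dppa4*, which lies beside *Dppa2* and acts with its product, had 41.0, 43.7 and 41.9 FPKM in 2ip5 and 44.1, 42.1 and 47.4 in N72h (0.12, SE 0.10, adjusted p = 0.298). The RNA-binding proteins that block let-7 maturation rose, *Lin28a* from 57.5, 65.0 and 56.2 FPKM to 186, 195 and 183 (1.71, SE 0.13) and *Lin28b* from 2.09, 1.71 and 1.59 to 10.9, 12.7 and 12.1 (2.79, SE 0.19). *Utf1*, a chromatin protein of pluripotent cells, rose by 1.93 (SE 0.17).

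**Figure D2:**
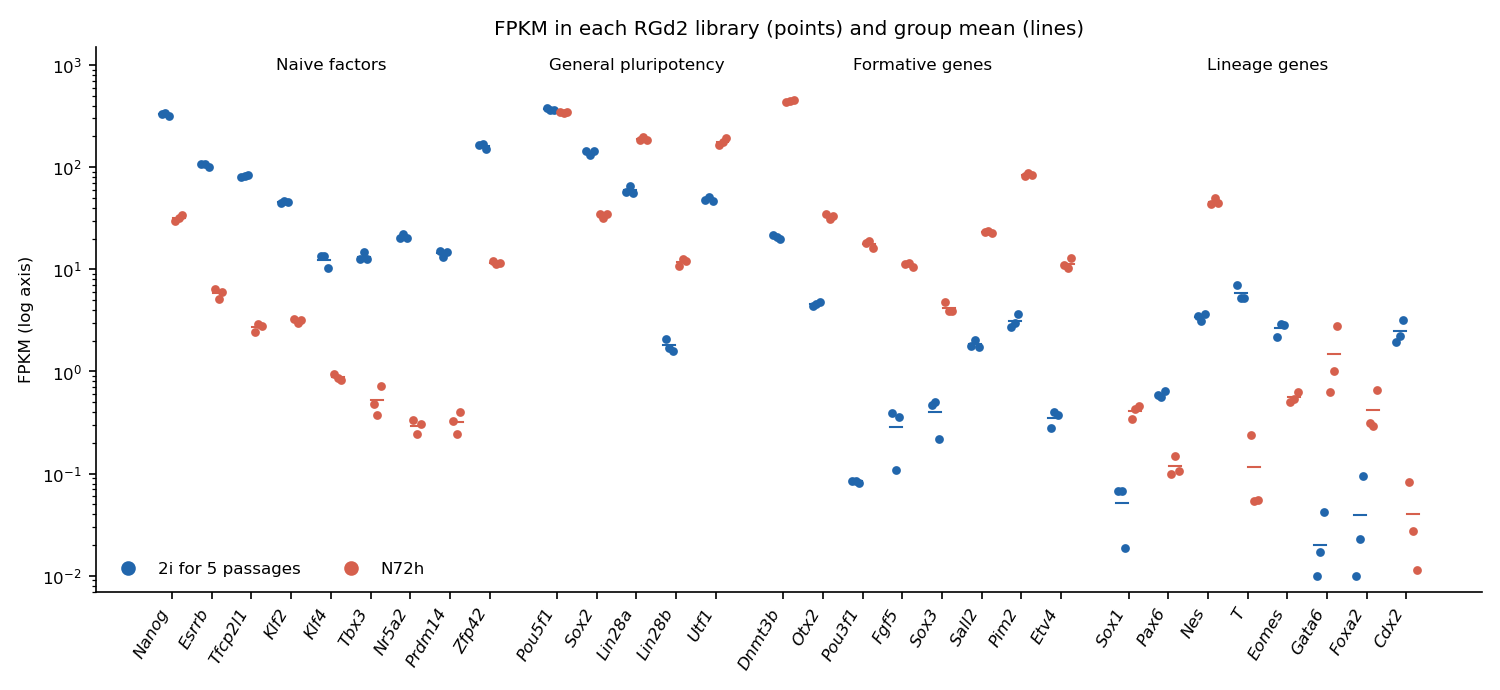
FPKM on a log axis of naive, general pluripotency, formative and lineage genes in each 2ip5 library (blue points) and each N72h library (red points), with group means as lines and values of 0 drawn near the lower edge. *Pou5f1* lay between 335 and 381 in all 6 libraries, while *Nr5a2* and *Pou3f1* lay on opposite sides of 1 FPKM in the 2 groups.

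Formative genes showed the converse pattern. Of 20 members 17 rose and 1 fell, with a median of 2.72. *Dnmt3b*, a de novo DNA methyltransferase (ENSMUSG00000027478.15, chromosome 2, 153649450 to 153687730), went from 21.7, 20.8 and 19.9 FPKM to 436, 443 and 455, the largest gain in FPKM among called genes whose symbol is not a model name (4.47, SE 0.14, adjusted p = 3.77e-26, edgeR, Benjamini-Hochberg). *Pou3f1*, the POU factor OCT6 (chromosome 4, 124656807 to 124660655), went from 0.0842, 0.0852 and 0.0819 FPKM to 18.0, 18.8 and 16.3 (7.74, SE 0.37). The growth factor gene *Fgf5* was at 0.389, 0.109 and 0.360 FPKM in 2ip5 and at 11.3, 11.4 and 10.6 in N72h (5.37, SE 0.38). The groups of all 3 genes lay far apart. *Otx2*, the homeodomain factor that directs OCT4 to formative enhancers, rose by 2.88 (SE 0.13) to 34.7, 31.2 and 33.5 FPKM, and *Sox3*, *Sall2* and *Grhl2* rose by 3.49 (SE 0.41), 3.69 (SE 0.15) and 3.85 (SE 0.19).

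Exceptions within the list were *Grhl3*, *Lef1* and *Cdh2*. *Grhl3* fell from 13.6, 12.02 and 14.6 FPKM to 1.03, 1.01 and 1.10 (−3.62, SE 0.17), opposite to its relative *Grhl2*. *Lef1*, a nuclear partner of β-catenin, had 7.24, 5.38 and 5.45 FPKM in 2ip5 and 5.72, 5.27 and 5.64 in N72h (−0.06, SE 0.17, adjusted p = 0.802). *Cdh2* (N-cadherin) lay between 0.964 and 1.36 FPKM in all 6 libraries.

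*Pim2*, a serine/threonine kinase on the X chromosome, went from 2.74, 2.99 and 3.64 FPKM to 81.8, 87.1 and 82.9 (4.77, SE 0.18). Its promoter is shown because, of the 12 formative genes with an entry, only *Pim2* and *Sox12* held an octamer and only *Pim2* a TCF/LEF site (CTTTGAT, or ATCAAAG on the other strand), both in capitals in the sequence (RefSeq, GRCm38.p6, plus strand, chrX:7878056-7878355).
Pim2 promoter: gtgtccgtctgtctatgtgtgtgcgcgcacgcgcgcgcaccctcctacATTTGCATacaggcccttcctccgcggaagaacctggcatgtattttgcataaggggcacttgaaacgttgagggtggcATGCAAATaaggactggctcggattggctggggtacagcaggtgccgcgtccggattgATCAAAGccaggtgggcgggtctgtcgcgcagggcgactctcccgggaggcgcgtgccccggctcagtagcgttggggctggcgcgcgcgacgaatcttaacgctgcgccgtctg
A match is a description of these letters and not evidence of binding. TCF/LEF sites were held by 2.54% of all tested promoters, 2.04% of those of genes that rose and 2.03% of those of genes that fell. The ESRRB site (AAGGTCA, or TGACCTT on the other strand) was in 3.33% of all, 2.57% of the first and 3.22% of the second, and in none of the 11 promoters of naive factors or the 12 of formative genes.

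Genes that respond to ERK rose and none of them fell, 12 of 19, with a median of 2.14. *Spry4*, a feedback inhibitor of receptor tyrosine kinases, went from 0.0471, 0.0596 and 0.00981 FPKM to 5.03, 5.32 and 6.004 (7.28, SE 0.26, adjusted p = 1.78e-24, edgeR, Benjamini-Hochberg). *Dusp6*, the phosphatase that inactivates ERK itself, went from 2.28, 2.76 and 2.56 FPKM to 36.9, 34.9 and 33.9 (3.82, SE 0.14). Both are negative regulators of the pathway, and *Dusp4* (2.83, SE 0.17), *Spry1* (2.14, SE 0.17) and *Spry2* (1.11, SE 0.17) rose too. Counts of the immediate early gene *Egr1* summed to 2 in 2ip5 and 705 in N72h, a ratio of 234 after scaling (exact 95% counting interval 64.6 to 1940, counting error only). *Fos* and *Fosl1*, further early genes, stayed under 1 FPKM in all 6 libraries and so could not be called. Counts of *Fosl1* summed to 5 in 2ip5 and 44 in N72h, a ratio of 5.85 (exact 95% counting interval 2.33 to 18.9). In this list 4 members were higher past the test but below the FPKM minimum, and 0 were lower. Of the PEA3 factors, ETS proteins downstream of FGF, *Etv4* rose from 0.278, 0.405 and 0.377 FPKM to 11, 10.2 and 12.99 (4.99, SE 0.18), whereas *Etv5* had 119, 120 and 110 FPKM in 2ip5 and 95.8, 88.5 and 94.3 in N72h (−0.28, SE 0.15, adjusted p = 0.11). *Etv5* was called lower with TMM (−0.40), with median-of-ratios factors on gene counts (−0.39) and without the filter on low counts. It was also called lower in the edgeR fits of only the 6 libraries compared (adjusted p = 0.00562) and of only the 15 RGd2 libraries (0.0434). The counts are per gene and do not tell the isoforms of *Etv5* apart.

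Among FGF ligands and receptors 6 of 13 rose and 2 fell. The main ligand of ESCs, *Fgf4*, was at 44.1, 48.1 and 40.6 FPKM in 2ip5 and 33.5, 29.0 and 33.1 in N72h, a fall of 0.43 on the log2 scale (SE 0.12), and *Fgf17* fell by 1.31 (SE 0.25). *Fgf5* and *Fgf15* were the ligands that rose most, *Fgf15* by 3.77 (SE 0.29) to 3.17, 3.73 and 3.30 FPKM. The receptors changed little by comparison, *Fgfr1* by 0.48 (SE 0.12) and *Fgfr2* by 0.79 (SE 0.16).

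Most Wnt target genes fell after withdrawal of CH. Of 16 members 9 were lower and 2 higher. *Sp5*, a zinc finger factor induced directly by β-catenin, had 8.44, 7.44 and 8.32 FPKM in 2ip5 and 0.0885, 0 and 0.0122 in N72h (−7.87, SE 0.51, adjusted p = 4.16e-16, edgeR, Benjamini-Hochberg). *Nkx1-2*, a homeobox gene of posterior epiblast, had 31.0, 29.4 and 25.3 FPKM in 2ip5 and 0.157, 0.267 and 0.181 in N72h (−7.15, SE 0.18). *Cdx1* was left with 6 counts over the 3 N72h libraries against 680 in 2ip5, a ratio of 170 (exact 95% counting interval 77.9 to 466). Those 3 genes were thus all but off at 72 h. The feedback inhibitors *Notum*, which removes a lipid from Wnt proteins, and *Axin2*, a scaffold of the destruction complex, fell from 34.4, 28.4 and 28.9 FPKM to 0.444, 0.337 and 0.587 and from 18.3, 17.7 and 18.6 to 1.44, 1.34 and 1.58. *Tcf7* (0.36, SE 0.13) and *Nkd1* (1.19, SE 0.28) were the members that rose, *Tcf7* with adjusted p values of 0.0638 to 0.115 in the edgeR fits that left out library 1, 3, 8 or 9. The *Sp5* promoter is shown because it was the only one of 10 promoters of this list with an entry that held a TCF/LEF site, in capitals (RefSeq, GRCm38.p6, plus strand, chr2:70474673-70474972).
Sp5 promoter: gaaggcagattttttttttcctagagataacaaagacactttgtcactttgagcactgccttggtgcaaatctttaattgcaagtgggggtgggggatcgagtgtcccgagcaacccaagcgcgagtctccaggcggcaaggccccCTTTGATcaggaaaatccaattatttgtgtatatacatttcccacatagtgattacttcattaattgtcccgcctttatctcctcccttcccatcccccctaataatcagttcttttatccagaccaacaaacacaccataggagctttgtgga

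The Nodal pathway, which sustains the primed epiblast and patterns the streak, split by role. Of 13 members 7 fell and 4 rose. The ligand *Nodal* went from 52.6, 52.7 and 48.9 FPKM to 8.96, 7.86 and 8.13 (−2.58, SE 0.11, adjusted p = 4.41e-22, edgeR, Benjamini-Hochberg). Its secreted antagonists fell further, *Lefty1* from 129, 124 and 119 FPKM to 14.3, 14.3 and 12.2 (−3.15, SE 0.17) and *Lefty2* from 271, 253 and 257 to 3.19, 2.65 and 2.67 (−6.48, SE 0.22). *Lefty2* went in this way from a mean of 260 FPKM to one of 2.83. *Pcsk6*, a protease that matures Nodal, fell by 2.62 (SE 0.14) on the log2 scale. Receptor and transducer genes changed less, with *Acvr2b* at 0.78 (SE 0.12), *Foxh1* at 0.49 (SE 0.12) and *Smad3* at 0.32 (SE 0.12). *Smad3* was no longer called in the edgeR fits without library 1, 3, 8 or 9 (adjusted p = 0.0651 to 0.0908), and 2 members were higher without library 3, 8 or 9.

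BMP and Id genes moved down in 6 and up in 2 of 15 cases, although the median of the list was 0.06. *Id4*, an inhibitor of helix-loop-helix factors, fell from 12.3, 13.3 and 11.6 FPKM to 0.308, 0.601 and 0.511 (−4.67, SE 0.22). The inhibitory *Smad7* fell by 2.75 (SE 0.19) and *Id3* by 1.91 (SE 0.21), and *Bmp4* by 1.34 (SE 0.20) on the log2 scale. *Id1* had 0.0931, 0.707 and 1.05 FPKM in 2ip5 and 1.44, 1.77 and 1.37 in N72h (1.09, SE 0.39), and was not called in the edgeR fits without library 1 (adjusted p = 0.0921) or 8 (0.0562). Without library 1, 2 or 3 only 1 member was higher, and without library 8 there were 0. The median of this list has the opposite sign with TMM scaling (−0.06).

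Of 17 Notch genes 9 rose and 1 fell. The ligands *Dll1*, *Dll3* and *Jag2* rose by 2.87 (SE 0.22), 2.95 (SE 0.35) and 1.98 (SE 0.19). *Lfng*, which glycosylates Notch receptors, went from 0.302, 0.262 and 0.252 FPKM to 3.82, 3.98 and 3.72. The target genes did not follow as a set. *Hey1* fell from 2.28, 2.26 and 3.12 FPKM to 0.740, 1.01 and 1.16, *Nrarp* rose by 1.14 (SE 0.22), *Hes1* had −0.15 (SE 0.15, adjusted p = 0.409) and *Hes5* had at most 0.264 FPKM in any of the 6 libraries. *Rbpj*, the DNA-binding factor of the pathway, lay between 9.80 and 11.04 FPKM throughout (0.02, SE 0.20).

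In the retinoid pathway 5 of 14 genes rose and 2 fell. The binding protein gene *Crabp2* went from 2.37, 2.81 and 2.79 FPKM to 25.8, 30.8 and 28.3 (3.44, SE 0.34), and *Crabp1* rose by 1.78 (SE 0.23). Against the 2i libraries *Crabp1* had 0.35 (adjusted p = 0.151) and *Rarg* −0.05 (adjusted p = 0.752, same edgeR test), neither called. The receptors diverged, *Rarg* rising by 1.12 (SE 0.14) while *Rara* changed by −1.14 (SE 0.14). *Aldh1a2*, which makes retinoic acid, was at 0.573, 0.821 and 0.457 FPKM in 2ip5 and at 0.103, 0 and 0.102 in N72h.

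Of 20 neural progenitor markers 6 rose, and the other 14 did not reach a mean of 1 FPKM in either group. *Nes*, an intermediate filament of neural stem cells, went from 3.52, 3.11 and 3.67 FPKM to 43.8, 49.7 and 44.2 (3.79, SE 0.19, adjusted p = 5.41e-20, edgeR, Benjamini-Hochberg). *Sox11* went from 0.689, 0.868 and 0.509 FPKM to 9.67, 9.43 and 8.82 and the proteoglycan gene *Ncan* from 0.180, 0.190 and 0.225 to 4.53, 4.53 and 4.70. *Prom1* (2.38, SE 0.16) and *Zfp521* (0.96, SE 0.26) rose too. *Sox1* and *Pax6*, defining transcription factors, lay below that minimum in 2ip5 and N72h, but both were called higher at 16 h. *Sox1* had 0.0671, 0.0679 and 0.0186 FPKM in 2ip5 and 0.346, 0.426 and 0.457 at N72h (3.16, SE 0.51, adjusted p = 1.93e-06, edgeR, Benjamini-Hochberg). *Pax6* had 0.591, 0.561 and 0.643 FPKM in 2ip5 and 0.0993, 0.149 and 0.106 at N72h (−2.34, SE 0.29, adjusted p = 5.89e-09, edgeR, Benjamini-Hochberg). Against the 2i libraries the change of *Pax6* was −0.44 (SE 0.325, adjusted p = 0.252, edgeR), not past the threshold. Of these 14 markers 4 were lower and 2 higher than in 2ip5 past the test below the minimum. None of 12 anterior neural plate and forebrain genes reached 1 FPKM. Markers of fibroblasts, summed over 6 genes, went from 0.368 to 1.16 FPKM in 2ip5 libraries to 6.03 to 6.79 in N72h libraries, nearly all of it *Thy1*, which neural cells share, with *Postn* at 0 in N72h. Below the FPKM minimum, *Dcn* (0 counts in 2ip5 and 176 in N72h) and *Col1a2* (3.16, SE 0.75) were higher past the edgeR test (adjusted p = 1.68e-07 and 0.000487). *Col1a1* did not pass it (adjusted p = 0.139). In bulk RNA fewer cells with a transcript and less of it per cell cannot be told apart.

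Neuron markers rose in 6 and fell in 1 of 16 cases. *Elavl3*, an RNA-binding protein of neurons, went from 0.0470, 0.00793 and 0.0588 FPKM to 1.71, 2.03 and 1.58, and *Neurod1* from 0.594, 0.401 and 0.346 to 4.46, 4.16 and 4.17 (3.37, SE 0.30). *Tubb3* rose by 0.93 (SE 0.12), but was lower against the 2i libraries (−0.63, SE 0.12, adjusted p = 1.24e-05, edgeR). *Stmn2* fell by 0.61 (SE 0.14) on the log2 scale. *Dcx*, *Neurog1* and *Neurog2*, markers of new neurons, had at most 0.0197, 0.0280 and 0.0461 FPKM in any of the 6 libraries. Of 12 genes of the neural crest and plate border *Twist1* rose (1.73, SE 0.42) and *Msx2* fell (−3.00, SE 0.27).

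Of 15 primitive streak genes 3 were lower at N72h, against 14.8% of all genes tested, and none was higher. *T*, the T-box factor Brachyury and a direct Wnt target, went from 7.00, 5.24 and 5.19 FPKM to 0.241, 0.0539 and 0.0555 (−5.66, SE 0.35). *Eomes* went from 2.16, 2.93 and 2.84 FPKM to 0.503, 0.540 and 0.631, and *Wnt3* changed by −2.04 (SE 0.29). The summed level of 5 streak markers (*T*, *Mixl1*, *Eomes*, *Mesp1* and *Tbx6*) went from 8.44 to 9.62 FPKM in 2ip5 libraries to 0.967 to 1.14 in N72h libraries.

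Of 15 endoderm markers 5 rose and none fell, with 1 library higher than the others in several. *Cubn*, an endocytic receptor of visceral endoderm, had 0.0217, 0.00366 and 0.0181 FPKM in 2ip5 and 2.45, 2.67 and 8.84 in N72h. The clonal library 9 was the highest. *Dab2*, the adaptor of that receptor, had 2.42, 2.33 and 5.75 FPKM in N72h, *Gata4* had 0.786, 0.878 and 3.24, and *Gata6* had 0.626, 1.02 and 2.78. The same library stood above both others in the genes of the basement membrane made by extraembryonic endoderm. *Col4a1* had 0.868, 0.820 and 0.633 FPKM in 2ip5 and 15.8, 16.8 and 45.3 in N72h (5.144, SE 0.67, adjusted p = 2.27e-08, edgeR, Benjamini-Hochberg), and *Lama1* had 7.14, 6.26 and 8.25 in 2ip5 and 10.2, 10.6 and 34.4 in N72h. By number of genes over 2-fold above both other N72h libraries, library 9 did not stand apart, with 22 against 46 for library 7 and 33 for library 8. Of its 22, 18 were protein-coding with a symbol, and among these *Col4a1* and *Lama1* had the highest FPKM, an observation made after the values were seen. The summed level of 6 endoderm markers (*Gata4*, *Gata6*, *Sox17*, *Foxa2*, *Sox7* and *Afp*) was 0.312 to 0.737 FPKM in 2ip5 and 2.48 to 8.62 in N72h, and *Afp* was at 0 in every N72h library.

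Without library 9 *Col4a1* changed by 4.47 (SE 0.65), *Cubn* by 7.58 (SE 1.22) and *Dab2* by 4.89 (SE 0.75), all still called. *Lama1* then changed by 0.58 (SE 0.46, adjusted p = 0.327) and *Gata4* by 1.14 (SE 0.70, adjusted p = 0.192) in the same edgeR fit, neither past the threshold, and 2 in place of 5 endoderm markers were higher. Without library 3 *Gata4* was not called either (adjusted p = 0.0568). The clonal line had high *Col4a1* in other cultures as well, with 8.26 FPKM of it in its 2i library against 1.74 and 1.72 in the parental 2i libraries, and 7.70 against 1.89 and 1.84 at N16h, but not in its 2ip5 library. The part of endoderm cells in the basement membrane result was not tested. Of 17 laminin and basement membrane genes 6 rose and 3 fell. *Lamb1* (2.00, SE 0.29), *Lama5* (1.01, SE 0.13) and *Hspg2* (0.86, SE 0.16) rose, *Hspg2* not against the 2i libraries (0.07, adjusted p = 0.724, edgeR), the nidogens *Nid1* and *Nid2* fell by 2.75 (SE 0.15) and 1.75 (SE 0.13) on the log2 scale, and *Lama5* with 43.8, 44.1 and 41.0 FPKM was no higher in library 9 than in the others.

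**Figure D3:**
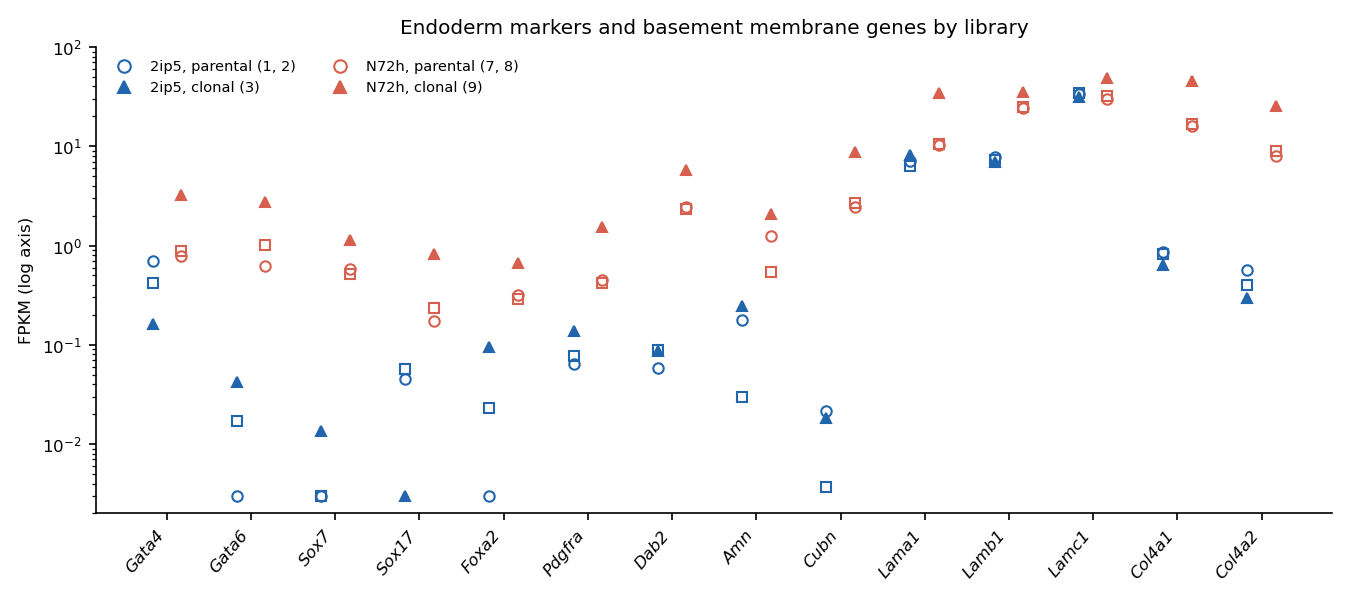
FPKM on a log axis of 9 endoderm markers and 5 basement membrane genes in the parental libraries (open symbols) and the clonal libraries (filled triangles) of 2ip5 (blue) and N72h (red), with values of 0 drawn near the lower edge. The clonal N72h library had the highest value of each gene shown, for instance 45.3 FPKM of *Col4a1* against 15.8 and 16.8.

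Genes of epithelial adhesion rose. In the list of cadherins and genes of epithelial to mesenchymal transition 7 of 16 were higher and 3 lower. *Cdh1* (E-cadherin) went from 68.8, 75.1 and 67.2 FPKM to 160, 175 and 166 (1.30, SE 0.12), the adhesion gene *Epcam* from 19.5, 18.8 and 14.3 to 127, 134 and 135 (2.97, SE 0.17), and *Esrp1*, which sets epithelial splicing, from 0.480, 0.486 and 0.536 to 14.8, 14.7 and 14.2 (4.89, SE 0.23, adjusted p = 4.81e-21, edgeR, Benjamini-Hochberg). *Zeb1*, a repressor of E-cadherin, fell from 2.52, 2.83 and 2.84 FPKM to 0.220, 0.358 and 0.224, *Fn1* (fibronectin) from 83.3, 79.3 and 77.7 to 19.3, 17.6 and 17.9, and *Vim* (vimentin) changed by −0.97 (SE 0.13). *Snai1* stayed under 1 FPKM in all 6 libraries.

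The keratins of simple epithelia were prominent. *Krt18* went from 3.63, 3.98 and 2.54 FPKM to 114, 120 and 119 (5.18, SE 0.23, adjusted p = 7.62e-22, edgeR, Benjamini-Hochberg), and its partner *Krt8* from 3.65, 2.88 and 3.14 to 54.5, 59.1 and 60.4 (4.24, SE 0.22). *Krt19* rose by 4.46 (SE 0.53) to between 4.08 and 5.75 FPKM. They stand in the list of trophoblast and surface ectoderm genes, of which 3 rose and 3 fell, and those that fell were transcription factors. *Elf3* went from 38.7, 36.3 and 34.1 FPKM to 4.32, 5.119 and 5.53, *Tfap2c* from 15.5, 14.6 and 20.5 to 0.631, 0.559 and 0.636, and *Cdx2* from 1.96, 2.25 and 3.19 to 0.0822, 0.0276 and 0.0114. *Elf5*, a defining factor of trophoblast, was at 0 in every library, and *Trp63*, that of stratified epithelium, had at most 0.0130 FPKM.

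The tight junction and actin families were looked at after their values had been seen. *Cldn6* went from 6.03, 4.75 and 4.36 FPKM to 119, 124 and 134 (4.72, SE 0.22), *Cldn7* from 0.943, 0.561 and 0.439 to 37.0, 36.01 and 35.4 and *Cldn3* rose by 2.96 (SE 0.18). Of 12 claudins tested 4 rose and 1 fell, *Cldn5* (−1.19), which was not called in the edgeR fits without library 1 (adjusted p = 0.0548) or 8 (0.0504). Muscle and smooth muscle actins came up from almost nothing. *Acta1* had 0, 0 and 0.0586 FPKM in 2ip5 and 23.5, 26.4 and 22.0 in N72h, 2 counts against 2744 and a ratio of 912 after scaling (exact 95% counting interval 252 to 7530). The ratios were 487 (87.1 to 19200) for *Acta2* and 189 (52.0 to 1560) for *Actc1*. The cytoplasmic *Actb* rose by 0.38 (SE 0.10) from a mean of 1233 FPKM, and *Actg1* had 0.26 (SE 0.12, adjusted p = 0.0572). *Actg1* was called higher in the edgeR fit of only the 6 libraries compared (adjusted p = 0.0156). Actin genes are alike in sequence and only unique matches were counted, so that their levels may be understated.

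Germ cell genes split in equal parts, 6 of 16 higher and 6 lower. *Sycp3*, a protein of the synaptonemal complex, went from 4.79, 5.49 and 4.81 FPKM to 42.8, 38.1 and 44.1 (3.08, SE 0.20, adjusted p = 2.21e-16, edgeR, Benjamini-Hochberg). *Mael* and *Ddx4*, of the piRNA pathway, went from 3.62, 5.46 and 4.0 FPKM to 25.3, 21.8 and 20.5 and from 2.27, 3.19 and 2.92 to 9.57, 8.71 and 8.77, and *Taf7l* and *Tdrd1* rose by 2.36 (SE 0.32) and 2.11 (SE 0.24). *Nanos3* went from 12.98, 8.93 and 13.98 FPKM to 0.151, 0.202 and 0.334 and *Prdm1*, which encodes BLIMP1, from 3.602, 3.32 and 4.17 to 0.283, 0.224 and 0.336, and *Ifitm3* changed by −1.77 (SE 0.15). 

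Promoters of these genes are shown because 9 of the 15 with an entry held the E-box CACGTG, which reads the same on both strands, against 9.97% of all tested promoters, 9.48% of those of genes that rose and 12.1% of those of genes that fell. This count was made after the values of the list were known. The E-box, in capitals, occurs 2 times before the start of *Sycp3* (RefSeq, GRCm38.p6, plus strand, chr10:88459337-88459636) and 1 time in that of *Ddx4* (minus strand, chr13:112652261-112652560).
Sycp3 promoter: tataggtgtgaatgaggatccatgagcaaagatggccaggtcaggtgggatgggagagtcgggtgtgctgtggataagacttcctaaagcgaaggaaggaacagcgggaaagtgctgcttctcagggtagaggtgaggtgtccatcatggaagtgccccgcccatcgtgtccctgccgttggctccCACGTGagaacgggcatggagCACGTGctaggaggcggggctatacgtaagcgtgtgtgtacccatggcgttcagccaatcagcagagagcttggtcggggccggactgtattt
Ddx4 promoter: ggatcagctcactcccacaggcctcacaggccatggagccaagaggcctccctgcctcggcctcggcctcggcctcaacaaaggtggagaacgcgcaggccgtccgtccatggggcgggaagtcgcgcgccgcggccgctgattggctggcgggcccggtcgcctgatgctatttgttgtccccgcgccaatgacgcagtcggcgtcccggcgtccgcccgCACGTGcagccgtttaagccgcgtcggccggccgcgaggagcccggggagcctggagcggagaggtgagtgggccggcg
Matches were found in *Mael*, *Taf7l*, *Tdrd1*, *Sycp1*, *Hormad1* and *Brdt* as well, and also in *Stk31*, which changed by −0.69 (SE 0.22) and was not called in the edgeR fit without library 7 (adjusted p = 0.0882).

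Enzymes that write and erase DNA methylation changed in both directions, 4 of 10 higher and 5 lower. *Dnmt3a* rose from 6.66, 7.50 and 6.30 FPKM to 19.5, 20.6 and 19.0 beside *Dnmt3b*. *Dnmt3l*, the catalytically inactive partner of both, had 35.4, 34.6 and 20.7 FPKM in 2ip5 and 9.48, 8.24 and 8.95 in N72h (−1.71, SE 0.15). Among the dioxygenases that oxidize methylcytosine, *Tet2* fell from 9.63, 9.96 and 8.44 FPKM to 1.42, 1.36 and 1.41, *Tet3* rose from 0.718, 0.661 and 0.693 to 2.33, 2.18 and 2.19 and *Tet1* changed by −0.34 (SE 0.14). The maintenance factor *Uhrf1* changed by −0.31 (SE 0.11), and *Dnmt1*, with 74.8, 69.8 and 69.1 FPKM against 56.2, 57.8 and 60.5, was not called (adjusted p = 0.072). It was called lower with TMM (−0.36) and in the edgeR fit of only the 6 libraries compared (adjusted p = 0.0191). In the edgeR fits without library 2 or 7 neither *Tet1* (adjusted p = 0.132 and 0.126) nor *Uhrf1* (0.172 and 0.0832) was called and 3 members were lower, and *Tet1* was also not called without library 3 (0.0954) or 9 (0.0816).

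Imprinted genes rose in 14 and fell in 1 of 23 cases (2 without library 2), with a median of 1.68. *Nnat* (neuronatin) went from 0.414, 0.359 and 0.418 FPKM to 18.3, 21.0 and 36.02 (6.03, SE 0.36, adjusted p = 1.54e-17, edgeR, Benjamini-Hochberg). *H19* rose by 3.29 (SE 0.41) and *Gnas* by 2.61 (SE 0.18), and *Plagl1* fell from 10.46, 10.7 and 16.7 FPKM to 0.166, 0.255 and 0.486. The clonal line differed from the parental line in several of these genes in both groups. *Grb10* had 4.72, 5.67 and 1.94 FPKM in 2ip5 and 32.0, 32.7 and 13.7 in N72h, *Phlda2* had 4.53, 5.56 and 0.442 in 2ip5 and 14.4, 17.6 and 7.47 in N72h, and *Cdkn1c* had 4.82, 4.72 and 0.574 in 2ip5 and 7.38, 4.92 and 1.62 in N72h. In each of them the clonal library was the lowest of its group, while *Grb10* and *Phlda2* were higher at N72h within both lines. In the edgeR fit without library 3 *Phlda2* was not called (adjusted p = 0.0566).

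Loci with large groups of miRNA genes changed in opposite directions, a pattern singled out after values were seen. Of 204 miRNA hairpin genes tested 35 were higher (17.2%) and 73 lower (35.8%). The counts come from fragments of long RNA, and so reflect the primary transcript around a hairpin and not the mature miRNA. In an intron of *Sfmbt2* (chromosome 2, 10370510 to 10595253), an imprinted Polycomb gene, lie 86 tested hairpins, of which 67 were lower, none was higher and the median change was −2.92. Their scaled counts summed to 973, 881 and 1209 in 2ip5 and 182, 164 and 128 in N72h. The host gene fell less, from 13.8, 13.04 and 16.2 FPKM to 3.55, 4.05 and 4.33 (−1.80, SE 0.14, adjusted p = 2.28e-14, edgeR, Benjamini-Hochberg). Many of these hairpins are near copies of each other, and they share 1 transcript, so they are not independent of each other.

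Between *Meg3* and *Mirg*, on the maternally expressed strand of the *Dlk1* locus (chromosome 12, 109541001 to 109749460), 26 of 45 tested hairpins were higher, none was lower and the median was 1.79. Scaled counts summed to 368, 325 and 322 in 2ip5 and 1468, 1182 and 859 in N72h, the lowest of the N72h values being again that of the clonal line. The long RNAs of the locus rose by as much, *Meg3* by 2.30 (SE 0.19), *Rian* by 2.35 (SE 0.17) and *Mirg* by 1.61 (SE 0.18). *Dlk1* itself had at most 0.200 FPKM.

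**Figure D4:**
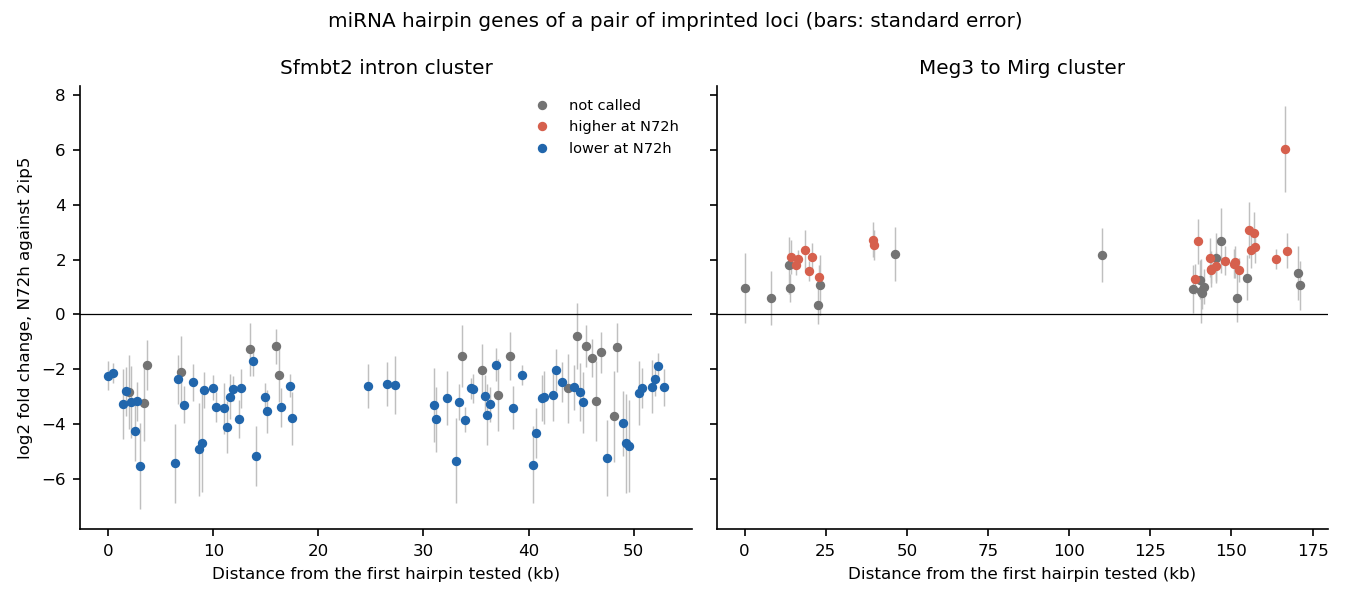
Log2 fold change of each tested miRNA hairpin gene (points, bars are standard errors, coloured by call) against its distance in kb from the first tested hairpin of the cluster, for the cluster within *Sfmbt2* (left) and that from *Meg3* to *Mirg* (right). All 86 points on the left lie below 0 and all 45 on the right lie above it.

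The miR-290 and miR-302 families are shown by sequence because the 2 clusters, at different loci, make miRNAs that share a seed. *Mir302b* and *Mir367*, of a cluster within *Larp7* on chromosome 3, had 0 counts in all 3 2ip5 libraries. Their scaled counts were 19.7, 21.9 and 10.97 for *Mir302b* and 11.4, 18.7 and 10.4 for *Mir367* in N72h, at least 3.73-fold and 2.87-fold higher when 2ip5 is set to the limit of 3 counts per library. The hairpins of the miR-290 cluster on chromosome 7, the main miRNAs of ESCs, had changes from −0.35 to −0.79, and only *Mir293* was called (−0.58, SE 0.24, adjusted p = 0.0419, edgeR), a call that was lost without library 2, 3, 8 or 9 (adjusted p = 0.0595 to 0.235). Seeds (bases 2 to 8) are in capitals in these mature sequences from RefSeq on GRCm38.p6.
miR-302b-3p: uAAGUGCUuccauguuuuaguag
miR-302d-3p: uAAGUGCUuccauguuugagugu
miR-291a-3p: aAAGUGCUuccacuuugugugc
miR-295-3p: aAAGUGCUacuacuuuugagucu
miR-367-3p: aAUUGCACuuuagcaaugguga
miR-293-3p: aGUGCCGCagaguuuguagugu
The first 4 have the same seed, and those of miR-367 and miR-293 differ from it. Of members not printed, miR-294-3p has that seed too, while those of miR-302c-3p, miR-290a-3p and miR-291b-3p differ from it. *Larp7* changed by 0.48 (SE 0.12).

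Glycolysis genes did not move together. Of 20 glycolysis genes 6 rose and 4 fell, with a median of 0.09. The glucose transporter *Slc2a1* (GLUT1) went from 63.5, 54.6 and 55.5 FPKM to 285, 300 and 296 (2.398, SE 0.13), while *Slc2a3* (GLUT3) went from 256, 249 and 228 to 85.5, 90.4 and 108 (−1.31, SE 0.12). In the same way lactate dehydrogenase *Ldha* rose by 1.16 (SE 0.13) and *Ldhb* fell by 1.86 (SE 0.16), and phosphofructokinase *Pfkl* rose by 1.20 (SE 0.14) and *Pfkp* fell by 1.58 (SE 0.13) on the log2 scale. Of 21 genes of cholesterol synthesis and uptake 17 rose, by 0.32 to 1.45, and 2 fell, or 1 without library 1, 2, 3, 7 or 8. *Lss* (lanosterol synthase) went from 12.7, 12.9 and 11.8 FPKM to 33.3, 32.4 and 33.0 (1.45, SE 0.10) and *Pmvk* rose by 1.31 (SE 0.15), against *Ebp*, a sterol isomerase, which fell by 2.19 (SE 0.12). Lysosome genes were lower in 9 of 22 cases and higher in 4. *Gusb*, a glucuronidase, rose by 1.59 (SE 0.16).

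Of the 13 mRNAs encoded by mitochondrial DNA 8 were lower and none higher, with a median of −0.59 (−0.70 with TMM). *mt-Co1* went from 6484, 5969 and 6680 FPKM to 3814, 3276 and 3669 (−0.78, SE 0.11, adjusted p = 1.22e-07, edgeR, Benjamini-Hochberg), one of the largest falls in FPKM of any gene, and *mt-Nd1* changed by −0.78 (SE 0.11). *mt-Co2* and *mt-Co3* had at most 1.04 and 0.398 FPKM in these libraries, where only uniquely matching fragments had been counted, so that levels cannot be compared between these genes.

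Cell cycle regulators fell in 11 and rose in 5 of 20 cases. Inhibitors of cyclin-dependent kinases went both ways, *Cdkn2a* from 27.3, 26.1 and 27.1 FPKM to 2.81, 2.45 and 2.76 (−3.27, SE 0.17), *Cdkn1a* (p21) from 27.3, 30.5 and 29.7 to 8.99, 7.74 and 8.70 (−1.74, SE 0.15) and *Cdkn1b* (p27) from 6.53, 6.37 and 6.32 to 12.5, 12.7 and 12.9 (1.03, SE 0.11). Of 15 p53 target and apoptosis genes 7 rose and 3 fell. The BH3-only genes rose, *Pmaip1* (NOXA) from 1.31, 1.82 and 1.43 FPKM to 47.9, 46.7 and 46.2 (4.97, SE 0.19), *Bcl2l11* (BIM) by 1.90 (SE 0.16) and *Bbc3* (PUMA) by 1.72 (SE 0.20). *Mdm2* was not called (0.06, SE 0.09), but was called higher against the 2i libraries (0.29, SE 0.09, adjusted p = 0.00407, edgeR). A role of p53 was not tested. Of 12 housekeeping genes 3 were called, *B2m*, a subunit of MHC class I, with 1.83 (SE 0.20), *Actb* and *Hprt* (0.34), and the median of the list was 0.06. *Hprt* was not called in the edgeR fits without library 1 (adjusted p = 0.151) or 8 (0.0703).

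The 10 largest changes in each direction were taken among called genes with a mean of at least 5 FPKM in the higher group and no overlap between groups. Besides *Acta1* and *Acta2*, *Kif1a*, a kinesin of axons, had 0.0926, 0.182 and 0.154 FPKM against 40.4, 41.7 and 43.0 (8.14, SE 0.20). *Thbs1* (thrombospondin 1) went from 0.231, 0.117 and 0.133 FPKM to 27.4, 31.4 and 28.1 (7.66, SE 0.29). Ratios of *Ccdc194* and *Jakmip2* were 289 (exact 95% counting interval 98.7 to 1400) and 170 (78.0 to 464), and *Pou3f1*, *Spry4* and *Mir302b* were also among the 10. The steepest falls besides *Sp5*, *Cdx1*, *Nkx1-2* and *Lefty2* were in *Pglyrp1*, a peptidoglycan recognition protein, with 11.9, 11.7 and 14.1 FPKM in 2ip5 and 0.0253, 0 and 0.0699 in N72h (−8.10, SE 0.40), *Lrrc15* (−7.12, SE 0.22), the neurotrophin receptor *Ngfr* (−6.60, SE 0.27), *Apobec2* (−6.35, SE 0.33), *Ism2* (−6.12, SE 0.35) and the peptide transporter *Slc15a1* (−6.09, SE 0.21). By change in FPKM, *Mif*, *Hist1h1e*, *Actb* and *Ldha* followed *Dnmt3b* among genes that rose. *Rmrp*, the RNA of RNase MRP, had the largest fall in FPKM, from 21200, 24070 and 30920 to 17380, 13130 and 8829, with wide spread in both groups (−0.92, SE 0.30), and was not called in the edgeR fits without library 3 (adjusted p = 0.0622) or 9 (0.0838).

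Setting the 72 h change beside that at 16 h shows which genes had moved by then, within the limit of different earlier culture. At 16 h 1014 genes were higher (5.37% of those tested) and 4388 lower (23.2%). All 16 h calls are given with spike-in scaling only. Spike-ins took 0.991%, 1.19% and 1.39% of the counts in the 2i libraries and 1.32%, 1.38% and 1.40% in the N16h libraries. The clonal 2i library had 5986857 gene counts, the fewest of the 32 libraries. Of the 4189 genes higher at 72 h, 578 (13.8%) were called higher and 905 (21.6%) lower at 16 h, and 2706 (64.6%) were not called. Of the 2802 genes lower at 72 h, 1565 (55.9%) were already lower at 16 h, 133 (4.75%) were higher and 1104 (39.4%) were not called. The difference between the changes was tested in the same model. It was positive in 4898 genes (25.9%) and negative in 1375 (7.28%), with a median of 0.38 over all genes, and TMM scaling gave 3212 and 3361, a median of 0.02, and 48.9% in place of 78.1% of the calls positive.

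The naive factors had not all moved by 16 h. *Nanog* (−2.48), *Tfcp2l1* (−2.48) and *Prdm14* (−2.83) were already well down, whereas *Zfp42* had −0.16 at 16 h (mean FPKM 179 in 2i and 188 at N16h) and *Nr0b1*, a corepressor, was higher at 16 h by 0.87 before it was lower at 72 h by 3.37 on the log2 scale. *Dppa2* rose by 1.09 at 16 h, *Tet1* by 0.94 and *Dnmt3l* by 2.82, from 15.3 to 127 FPKM in the mean, and all 3 were lower at 72 h. For *Dnmt3l* the difference between the changes was −4.53 (SE 0.21, adjusted p = 8.33e-20, edgeR, Benjamini-Hochberg).

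*Spry4* had changed by 7.81 at 16 h against 7.28 at 72 h and *Sp5* by −9.66 against −7.87, with differences of −0.53 (SE 0.63, adjusted p = 0.571) and 1.79 (SE 1.51, adjusted p = 0.359, same edgeR test). *Notum* changed by −1.15 and −5.93, with a difference of −4.78. Of 19 ERK response genes the difference was positive in 4 and negative in 2, and of 16 Wnt target genes it was positive in 2 and negative in 5. *Etv4* changed by 4.48 and 4.99. *Krt18* changed by 0.21 at 16 h with a difference of 4.97 (SE 0.32) and *Cldn6* by −0.33 with a difference of 5.05 (SE 0.31). By contrast *Nes*, *Prom1* and *B2m* were first lower at 16 h, by 1.21, 1.68 and 1.82 on the log2 scale, and then higher at 72 h. *Nes* had a difference of 5.01 (SE 0.26). *Pax6* was higher at 16 h by 3.28 (SE 0.27), from a mean of 0.10 FPKM in 2i to 1.45 at N16h, and its difference was −5.62 (SE 0.39). *Sox1* was higher at 16 h by 3.03 (SE 0.38), from a mean of 0.15 to 1.13 FPKM. Of the 20 neural progenitor markers 3 were higher and 3 lower at 16 h. Of the lysosome genes 18 of 22 were lower at 16 h and 9 at 72 h, with a positive difference in 13.

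**Figure D5:**
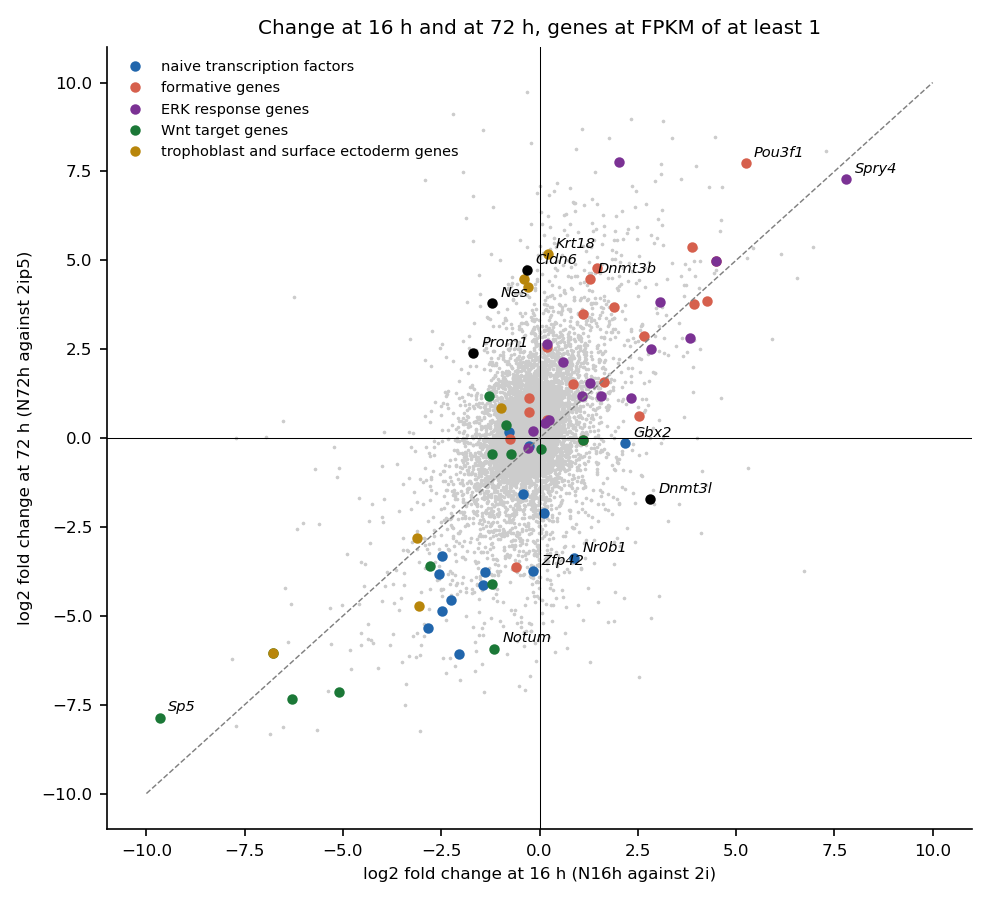
Log2 fold change at 72 h (N72h against 2ip5, vertical) against that at 16 h (N16h against 2i, horizontal) of genes with a mean FPKM of at least 1 in 1 of the 4 groups, with 5 gene lists in colour, selected other genes in black and equal changes on the dashed line. *Sp5* and *Spry4* lie near the line, while *Krt18*, *Cldn6* and *Nes* lie far above it and *Zfp42*, *Nr0b1* and *Dnmt3l* below.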

How the data were processed

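RNA was measured in 32 libraries by strand-specific paired-end sequencing of total RNA depleted of ribosomal RNA, with ERCC spike-in transcripts added. After trimming with Trim Galore, the authors mapped reads to the mouse genome GRCm38 (mm10) with TopHat2, and featureCounts assigned uniquely mapped primary alignments to genes by strand. The deposited values are raw read counts per gene, not normalized. Versions of these tools are not given in the sources used here.

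Samples were grouped by their labels. Size factors of libraries came from the 52 spike-ins detected in each of the 32 libraries, by the median-of-ratios method. Genes kept by filterByExpr (18892) were fitted with edgeR 4.0.16 (glmQLFit and glmQLFTest, R 4.3.3), with 1 coefficient for each of 11 conditions and all 32 libraries sharing the estimate of spread. P-values were adjusted by the Benjamini-Hochberg method over all genes tested. FPKM were computed from the deposited counts and gene lengths. N72h was compared with 2ip5, N16h with 2i, and the difference of the 2 changes was tested in that model. Where a group was nearly at 0, the ratio of scaled counts is given with an exact 95% interval, or a bound from 3 counts per library. On simulated data 48 of 50 genes changed 2-fold, 50 of 50 changed 4-fold and 45 of 100 changed 1.5-fold were called, among 18322 genes. The changed genes had a mean of at least 50 scaled counts in 2ip5, and all genes had the same coefficient of variation, 0.127. The rates therefore do not hold for genes with fewer counts or a wider spread. Between 5986857 and 71439411 counts fell on genes in the 32 libraries. Alternatives were other scalings, DESeq2 1.42.0, other filters and sets of libraries, a block for the line, the 2i reference and leaving out each library.

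The members and the 30 lists were chosen with earlier results of these data known. Genes named are, per list, up to 5 called in each direction and defining members that were not called, besides the 10 largest log2 changes and 5 largest FPKM changes in each direction, and the 5 largest differences between 72 h and 16 h. Further genes (families, clusters, line differences and genes set beside their relatives) were named after their values were seen. A few genes that these rules would name are not reported here.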

Additional observations from a re-analysis of the deposited data

Results flagged for a closer look

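The change at 72 h differed from the change at 16 h, by a test of the difference in the edgeR quasi-likelihood model, in 4898 genes towards higher and 1375 towards lower values. The libraries of both changes are separate, and time and earlier culture cannot be told apart.

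Genes were ranked by this difference if it passed the threshold and their mean was at least 5 FPKM in some RGd2 condition. Model names were left out. The largest positive differences (log2) in that ranking were those of *Mir302b* (10.16), *Acta2* (10.11), *Acta1* (10.05), *Igfbp5* (8.48) and *Sema6a* (7.69). The first 3 have groups near 0 counts, so their values depend on the prior count of the fit, and *Mir302b* was not past the threshold without 2i library 32. *Igfbp5* encodes a binding protein of insulin-like growth factors and *Sema6a* a guidance cue of neurons. The largest negative differences in the same ranking were those of *Vwa3b* (−6.1), *Arl14epl* (−5.64), *Halr1* (−5.45), *Mylpf* (−5.26) and *Accsl* (−5.12). Below that FPKM minimum, *Actc1* had a difference of 9.41 and *Pax6* one of −5.62, both past the threshold.

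*Dnmt3l* (−4.53) and *Dppa2* (−2.92) rose at 16 h and fell at 72 h. *Nes* (5.01) and *Prom1* (4.06) fell at 16 h and rose at 72 h.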

How the results depend on the processing

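The count of genes lower at N72h was 1771 with a fold change of at least 1.5. Against the 2i libraries 2651 genes were higher and 5514 lower. The difference between 72 h and 16 h was positive in 3212 and negative in 3361 genes with TMM scaling, and negative in 3370 with median-of-ratios factors on gene counts, where the median of all genes moved to 0.02 and 0.03. Leaving out 1 library gave 3687 to 4195 genes higher and 2379 to 2723 lower, and 3929 to 6003 positive and 1212 to 1792 negative differences. The other 80 values of these counts were within 1.5 times the main count. The cause of these shifts was not tested.

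With the line (parental or clonal) as a replicate block, 3960 genes were higher and 2537 lower, and 4455 differences were positive and 1304 negative. Replicate numbers in the labels are not shared between the groups. Under this block *Uhrf1* was no longer called and *Cdkn1c* passed the test.

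The median of BMP and Id genes changed sign with TMM (−0.06), median-of-ratios factors (−0.048), the libraries compared alone (−0.25), the 2i reference (−0.36) and without library 3 (−0.02), 8 (−0.01) or 9 (−0.021), where leaving out 1 library gave −0.021 to 0.19. That of germ cell genes did so with the libraries compared alone (−0.021) and the 2i reference (−0.32). Against 2i the sign of 9 named genes changed, to −0.093 for *Actb*, 0.42 for *Hey1*, −0.028 for *Larp7*, −0.054 for *Rarg*, −0.54 for *Rbpj*, −1.03 for *Snai1*, −0.15 for *Tcf7*, −0.63 for *Tubb3* and 0.31 for *Wnt3*. Of the other values of named genes under all alternatives, 4005 kept direction and side of the threshold, 63 lost the threshold and 32 passed it.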
